A study of Mus musculus with 6 samples.

Results

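Matrix metalloproteinases (MMPs) and the tissue inhibitors of metalloproteinases (TIMPs) were read from the deposited gene counts of banded mouse hearts as 10 genes fixed by name, Mmp2, Mmp3, Mmp9, Mmp14, Mmp15, Mmp23 and Timp1 to Timp4, out of 54532 genes in the table. All 10 had 1 row each and all 10 passed the low-count filter. The libraries came from the left ventricle of 3 HINT2 transgenic mice (TG) and 3 non-transgenic mice (NTG), 1 poly-A selected library per heart. TG mice, labelled HINT2CTG-Myh6Cre, express human HINT2 from the CAG promoter once tamoxifen-activated Cre, driven by Myh6, has cut out a floxed stop, so the transgene was meant for cardiomyocytes alone. NTG mice carry the genotype label C57BL/6J, and whether they received tamoxifen or carried Cre is not given in the sources used here, so neither can be told apart from HINT2 in the comparison. The methods describe male mice of 8 to 10 weeks at surgery, and every heart in both groups had 4 weeks of aortic banding (AB), with no unbanded heart analysed here. The comparison therefore asks how the matrix protease genes of a pressure-loaded ventricle differed with HINT2 overexpression.

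The libraries held 14863568 to 17581220 counts on genes. Levels below are CPM, read counts brought to a common library total with TMM factors. Fold changes are TG over NTG from edgeR's quasi-likelihood test over 14774 genes with Benjamini-Hochberg adjustment, printed with the standard error (SE), and their p-values measure the spread between these 6 libraries. Cardiomyocyte markers such as Myh6 and Tnnt2 were abundant in every library, with a summed level of 17321 to 33134 CPM over 6 markers, as in heart muscle. These markers do not separate ventricle from atrium. Hint2 itself, the targeted gene, had 12, 545 and 559 counts in the libraries labelled NTG 1 to 3 and 793, 828 and 859 counts in TG 1 to 3 (log2 fold change 1.33, SE 0.86, adjusted p = 0.433, edgeR). Without the library labelled NTG 1 the Hint2 log2 fold change was 0.77 (SE 0.12, adjusted p = 0.0212, edgeR). The library labelled NTG 1, with 12 counts, thus goes against its label as a control. Its chi-square distance per gene was 17.8 to 28.1 to the TG libraries and 33.1 and 71.2 to the other NTG libraries. The library labelled NTG 1 was not alone in this. TG 2 was also nearer to the libraries labelled NTG 1 and NTG 3 (17.8 and 28.5) than to TG 1 and TG 3 (32 and 36.8). Whether reads of the human sequence were counted on the mouse gene is not given in the sources used here. Fold changes of the members are given with and without the library labelled NTG 1. The library labelled NTG 2 held the neutrophil markers, 254 CPM over 6 genes against 8.69 to 39.6 in the other 5. Atrial markers (Myl7, Sln and Myl4) summed to 67.4 CPM in the library labelled NTG 1, 29.1 in TG 2 and 167 in TG 3, and to 2.17 to 4.54 in the other libraries, so 3 libraries carried atrial transcripts beside the left ventricle label. Their part in the results was not tested. Mitochondrial genes took 13.4% to 19.2% of counts in NTG and 16.0% to 21.5% in TG. Since RNA came from whole tissue, fewer cells of a type and less RNA per cell cannot be told apart.

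MMPs are zinc-dependent endopeptidases that cleave collagens, fibronectin, proteoglycans and many non-matrix proteins. They are made as proenzymes and need their propeptide removed, and TIMPs block the active enzymes by occupying the catalytic cleft. In a heart under pressure load, fibroblasts, leukocytes and cardiomyocytes all contribute to this system, which sets how fast the collagen network is laid down and taken apart.

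By level, TG hearts had less of 8 of the 10 genes and more of 2, Mmp15 and Timp4. The median log2 fold change over the 10 was -0.77, beside -0.008 over all genes tested. A call required an adjusted p below 0.05 and a log2 fold change beyond 0.5 in either direction. By edgeR 0 genes of the family were called, beside 0% of the genes tested, the smallest adjusted p being 0.196. Without the library labelled NTG 1, edgeR called Mmp14, Mmp23 and Timp2 lower, beside 2.85% of 15136 genes tested in that fit, and Mmp15 higher, beside 2.67%. Without NTG 2 it called 0 members, with adjusted p values of 0.356 to 0.73, and 0 without any of the other 4 libraries. At an unadjusted p under 0.05 there were 8 members lower, where 9.76% of all genes tested were, and 1 member higher, where 8.83% were. The 3 NTG and 3 TG libraries did not overlap for 6 members lower in TG, beside 12.3% of genes tested, and for 1 member higher, beside 11.2%. An exact permutation test of 3 libraries against 3 cannot go below 0.1, which these 7 genes reached. DESeq2, the tool of the methods, called Mmp14, Mmp23, Timp1 and Timp2 lower and Mmp15 higher by the same rule, with 2.4% of genes tested called lower and 1.54% called higher. With each library left out in turn, the DESeq2 calls of Mmp14, Mmp23, Timp1 and Timp2 held in 2 of 6 fits, those without the library labelled NTG 1 and without TG 2, and that of Mmp15 in 4 of 6, being lost without TG 1 and without TG 3. DESeq2 also called Mmp3 and Mmp9 lower without the library labelled NTG 1, beside 877 of 15136 genes tested. Without TG 2 it also called Mmp2 lower and Timp4 higher, beside 486 and 292 of 15062 genes tested.

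**Figure D1:**
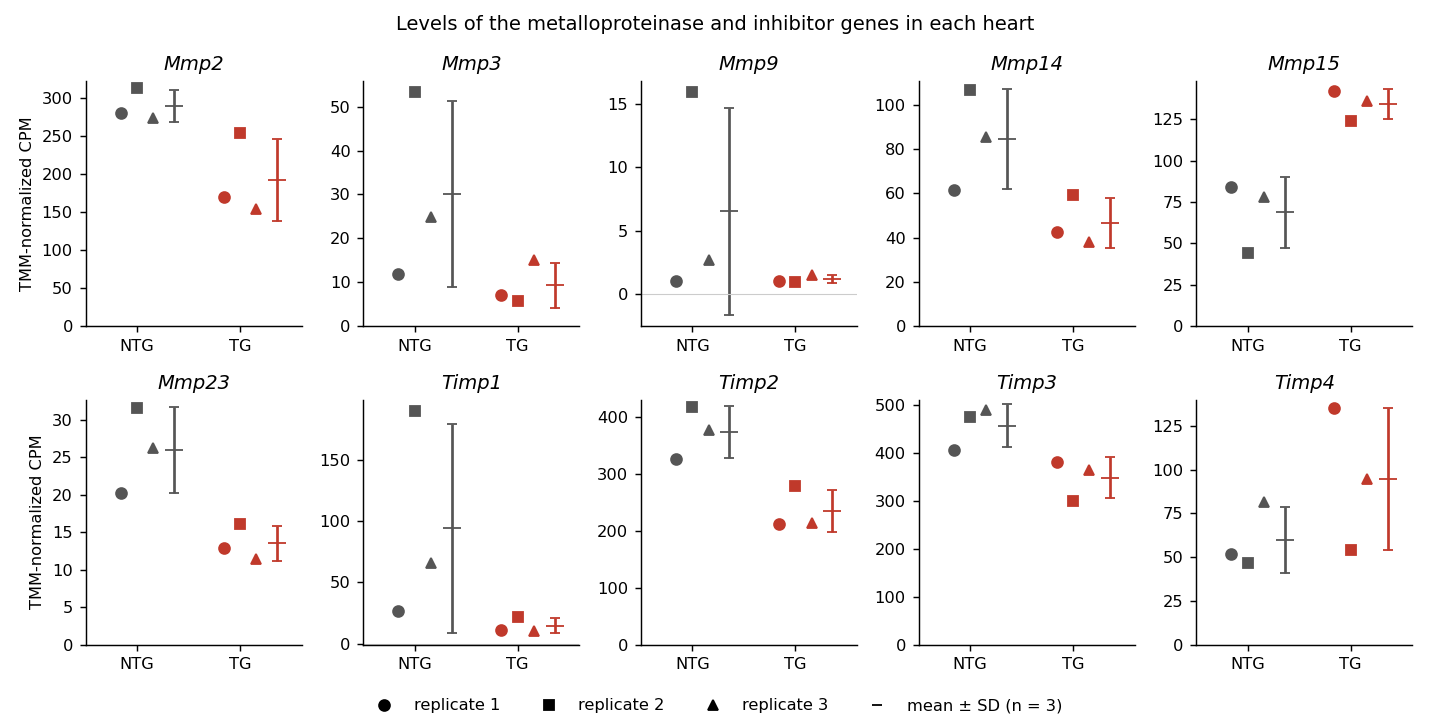
TMM-normalized CPM of each gene in each library, with the replicate number as the marker shape and the mean ± SD (n = 3) as a bar beside the points. NTG 2 (square) is the highest NTG library for 7 of the 8 genes that were lower in TG, and the library labelled NTG 1 (circle) the lowest NTG library for 7 of them.

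Sequence upstream of the start was at hand for 8 of the 10 genes (RefSeq, GRCm38.p6), and it is shown for 3 genes that stood lower in TG hearts, because the family's inducible members are classically read through short promoter motifs. The 250 bases before the annotated start are given 5′ to 3′ on the sense strand, with capitals marking matches to the AP-1 motif TGANTCA or to the GC box GGGCGG on either strand.
Mmp3: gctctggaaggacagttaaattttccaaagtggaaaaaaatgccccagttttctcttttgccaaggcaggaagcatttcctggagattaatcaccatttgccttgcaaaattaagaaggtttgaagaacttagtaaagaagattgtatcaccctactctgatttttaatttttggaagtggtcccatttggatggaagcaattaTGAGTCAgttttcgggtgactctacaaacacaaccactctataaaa
Timp1: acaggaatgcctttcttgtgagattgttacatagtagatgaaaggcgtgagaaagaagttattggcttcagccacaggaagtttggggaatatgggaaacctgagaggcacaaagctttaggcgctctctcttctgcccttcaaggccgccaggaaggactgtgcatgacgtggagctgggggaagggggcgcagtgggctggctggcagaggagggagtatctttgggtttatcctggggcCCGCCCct
Mmp14: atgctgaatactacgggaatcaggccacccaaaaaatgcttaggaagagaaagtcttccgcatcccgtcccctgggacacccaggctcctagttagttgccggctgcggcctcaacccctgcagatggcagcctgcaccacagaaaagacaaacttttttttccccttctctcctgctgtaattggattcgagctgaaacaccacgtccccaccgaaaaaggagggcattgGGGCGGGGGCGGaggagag
The windows are chr9:7445572-7445821, chrX:20869916-20870165 and chr14:54431348-54431597, all on the plus strand. Mmp3 was the 1 gene of the 8 with an AP-1 match, 46 bases before its start, while 6.75% of 32851 promoter windows of the same length hold this motif. GC box matches stood in 5 of the 8 genes (Mmp14, Mmp15, Timp1, Timp2 and Timp3), against 32.7% of all windows. Timp1 had 1 GC box and Mmp14 had 2 that lie next to each other. The motifs share no bases in these windows, and a match describes letters only.

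Mmp2 (ENSMUSG00000031740, chromosome 8, 92827291 to 92853420, plus strand, GRCm38), which encodes gelatinase A and is a constitutive product of fibroblasts, had the highest level per kilobase of gene length among the 6 MMP genes in both groups. It measured 280, 313 and 273 CPM in NTG 1 to 3 and 169, 254 and 154 CPM in TG 1 to 3. The groups did not overlap, but TG 2 lay just under the lowest NTG library. TG over NTG, the log2 fold change came to -0.59 (SE 0.19, 95% interval -1.03 to -0.15, adjusted p = 0.208, edgeR). Leaving out each library in turn moved it between -0.84 without TG 2 and -0.45 without TG 3, and it was -0.61 without the library labelled NTG 1.

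Mmp9 (ENSMUSG00000017737, chromosome 2, 164940780 to 164955850) encodes gelatinase B, which neutrophils store in granules. It had the lowest level per kilobase of the 10 genes in both groups, with 15, 300 and 46 counts in NTG 1 to 3 and 14, 17 and 25 counts in TG 1 to 3. In CPM these were 1.02, 15.9 and 2.66 in NTG and 1.01, 0.965 and 1.54 in TG. The groups overlapped, and NTG 2 alone stood high. The log2 fold change of -2.48 (SE 0.99, adjusted p = 0.254, edgeR) became -0.66 without NTG 2 and -2.99 without the library labelled NTG 1. Of the 6 neutrophil markers, 5 could be tested and all 5 were lower in TG by level. At an unadjusted p under 0.05, 4 were lower, beside 9.76% of all genes tested, but the groups overlapped for all 5. The 6 markers summed to 9.61, 254 and 39.6 CPM in NTG 1 to 3 and 14.7, 8.69 and 17.6 CPM in TG 1 to 3, so NTG 2 alone stood far above the rest. Ly6g, the defining surface marker, had 17 counts in NTG 2 and 0 or 1 in the other libraries. Mmp8, the neutrophil collagenase, had 268 counts in NTG 2 and 1 to 13 in the others. The part of neutrophil RNA in the Mmp9 difference was not tested.

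Mmp3 (ENSMUSG00000043613, chromosome 9, 7445822 to 7455975), or stromelysin-1, cleaves proteoglycans and activates other proMMPs. Its level was 11.9, 53.4 and 24.9 CPM in NTG 1 to 3 and 7.06, 5.68 and 15.0 CPM in TG 1 to 3. TG 3 lay above the library labelled NTG 1, so the groups overlapped. This gave a log2 fold change of -1.71 (SE 0.61, 95% interval -3.15 to -0.26, adjusted p = 0.225, edgeR), -1.0 without NTG 2 and -2.09 without the library labelled NTG 1.

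**Figure D2:**
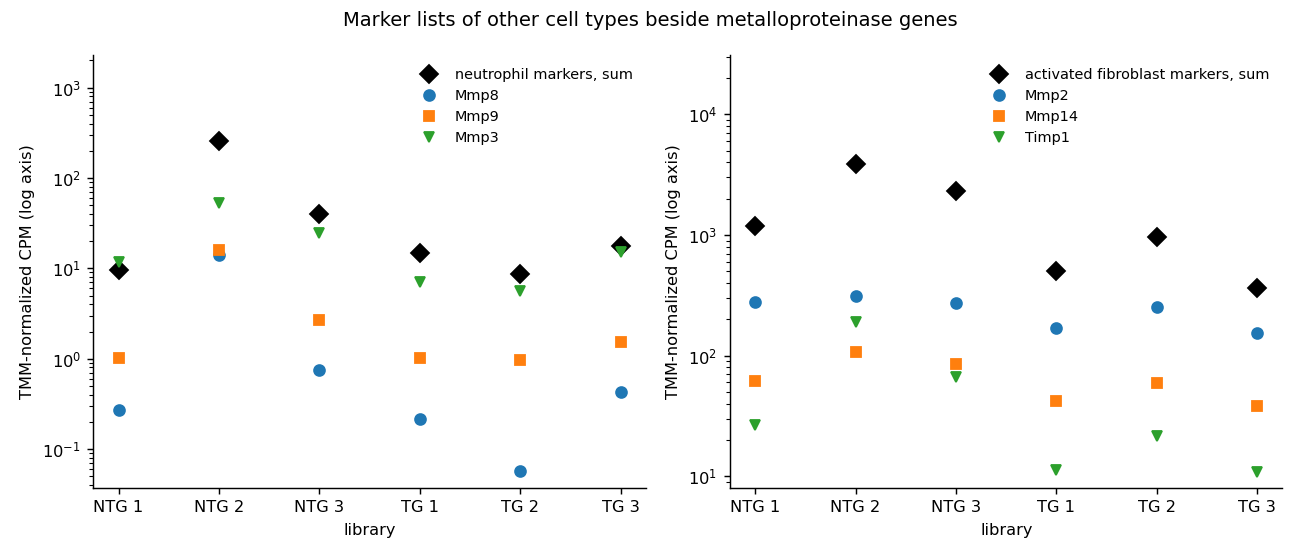
Summed CPM of the neutrophil and activated fibroblast marker lists (diamonds) beside metalloproteinase genes in each library, on log axes. Mmp8, Mmp9 and the neutrophil list peak together in NTG 2, and the summed activated fibroblast list, Mmp14 and Timp1 are all higher in each NTG library than in each TG library. Postn holds most of the NTG sums of that fibroblast list. Its other 4 markers sum to 253 to 326 CPM in NTG and 189 to 293 CPM in TG, which overlap.

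The membrane-anchored proteases differed in direction, with Mmp14 and Mmp23 lower and Mmp15 higher in TG by level. Mmp14 (ENSMUSG00000000957, chromosome 14, 54431612 to 54445364) encodes MT1-MMP, a collagenase of the cell surface that also activates proMMP2 together with TIMP2. It was 61.7, 107 and 85.6 CPM in NTG 1 to 3 and 42.5, 59.2 and 38.0 CPM in TG 1 to 3. The groups did not overlap, with the library labelled NTG 1 and TG 2 close to each other. The fitted log2 fold change stood at -0.86 (SE 0.24, 95% interval -1.42 to -0.30, adjusted p = 0.196 by edgeR and 0.019 by DESeq2). Without the library labelled NTG 1 it was -1.05, and edgeR's adjusted p was then 0.037. Without NTG 2 it was -0.66, with an adjusted p of 0.446 (edgeR), and DESeq2's adjusted p reached 0.228 with 1 library left out.

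Mmp15 (ENSMUSG00000031790, chromosome 8, 95352268 to 95375080) encodes MT2-MMP, a related transmembrane protease. Its level was 84.1, 44.2 and 78.1 CPM in NTG 1 to 3 and 142, 124 and 136 CPM in TG 1 to 3. All TG libraries lay well above all NTG libraries, and the TG libraries were close together. The group means were 68.8 ± 21.5 CPM (SD, n = 3) in NTG and 134 ± 9.07 CPM (SD, n = 3) in TG, a fitted 1.95-fold difference. On the log2 scale the fold change was 0.96 (SE 0.23, 95% interval 0.43 to 1.5, adjusted p = 0.196 by edgeR and 0.00452 by DESeq2). It stayed positive at 0.72 without NTG 2 and at 1.13 without the library labelled NTG 1, where edgeR's adjusted p was 0.0493. Cardiomyocyte markers ran the same way, with all 6 higher in TG by level and a median log2 fold change of 0.31. Of these markers, 1 (Tnni3) had an unadjusted p under 0.05, where 8.83% of all genes tested were higher. The 6 markers summed to 17321 to 28276 CPM in NTG and 27401 to 33134 CPM in TG, which overlapped. The part of cardiomyocyte RNA in the Mmp15 difference was not tested.

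Mmp23 (ENSMUSG00000029061, chromosome 4, 155650655 to 155653384, minus strand) encodes an MMP anchored through its amino-terminal end, with a domain make-up unlike the other members. It was 20.2, 31.6 and 26.2 CPM in NTG 1 to 3 and 12.9, 16.1 and 11.4 CPM in TG 1 to 3, with no overlap. The log2 fold change of -0.95 (SE 0.20, 95% interval -1.40 to -0.50) had the smallest unadjusted p of the family, 0.00124 by edgeR (adjusted p = 0.196, and 0.00346 by DESeq2). Over the 6 fits that each left out a library it lay between -1.10 and -0.79, and edgeR's adjusted p was 0.0208 without the library labelled NTG 1.

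Among the inhibitors, Timp1 (ENSMUSG00000001131, chromosome X, 20870166 to 20874735) differed most. TIMP1 is the secreted, inducible inhibitor that is a widely used marker of active fibrosis. Its counts were 391, 3581 and 1145 in NTG 1 to 3 and 156, 381 and 176 in TG 1 to 3, or 26.7, 190 and 66.2 CPM against 11.2, 21.6 and 10.8 CPM. The groups did not overlap, although the library labelled NTG 1 lay far nearer to TG 2 than to NTG 2. The means were 94.2 ± 85.1 CPM (SD, n = 3) in NTG and 14.6 ± 6.12 CPM (SD, n = 3) in TG. In log2 terms the fold change was -2.69 (SE 0.72, 95% interval -4.42 to -0.96, adjusted p = 0.196 by edgeR and 0.0344 by DESeq2), -1.67 without NTG 2 and -3.13 without the library labelled NTG 1. Timp1 lies inside the Syn1 gene on the opposite strand and shares 0 exonic bases with it, and Syn1 had 6 to 18 counts.

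Timp2 (ENSMUSG00000017466, chromosome 11, 118301069 to 118355740, minus strand), the inhibitor that bridges MT1-MMP and proMMP2, was 326, 417 and 377 CPM in NTG 1 to 3 and 212, 278 and 214 CPM in TG 1 to 3. Each TG library lay below each NTG library. This corresponds to a log2 fold change of -0.67 (SE 0.15, 95% interval -1.02 to -0.32, adjusted p = 0.196 by edgeR and 0.00448 by DESeq2). Leaving out single libraries gave -0.81 to -0.58, and without the library labelled NTG 1 it was -0.76 with an adjusted p of 0.0326 (edgeR).

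Timp3 (ENSMUSG00000020044, chromosome 10, 86300372 to 86349506) encodes the inhibitor that binds to the matrix and also inhibits ADAM17. Its level was 405, 474 and 489 CPM in NTG 1 to 3 and 380, 300 and 363 CPM in TG 1 to 3. The groups did not overlap but the library labelled NTG 1 and TG 1 were close. The difference was the smallest of the family, a log2 fold change of -0.39 (SE 0.14, adjusted p = 0.217, edgeR), or -0.47 without the library labelled NTG 1. Timp3 shares 1733 of its 8144 exonic bases with Syn3 on the opposite strand, and since no strand setting is given, reads of both cannot be told apart there. Syn3 itself had 7 to 16 counts.

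Timp4 (ENSMUSG00000030317, chromosome 6, 115241892 to 115252205, minus strand), the inhibitor with its highest known expression in the heart, was 52.0, 46.5 and 81.6 CPM in NTG 1 to 3 and 135, 53.9 and 94.9 CPM in TG 1 to 3. TG 2 lay among the NTG libraries. The log2 fold change of 0.66 (SE 0.36, 95% interval -0.20 to 1.52, unadjusted p = 0.113, adjusted p = 0.365, edgeR) was not larger than the spread between replicates. It was 0.31 without TG 1 and 0.56 without the library labelled NTG 1. Without NTG 3 and without TG 2 it was 0.94 (adjusted p = 0.399 and 0.187, edgeR), and DESeq2's adjusted p without TG 2 was 0.0273. The cardiomyocyte marker sum was also highest in TG 1, at 33134 CPM, and its part in the Timp4 level was not tested. Timp4 lies inside Syn2, which had 157 to 242 counts, on the opposite strand, with 90 shared exonic bases.

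**Figure D3:**
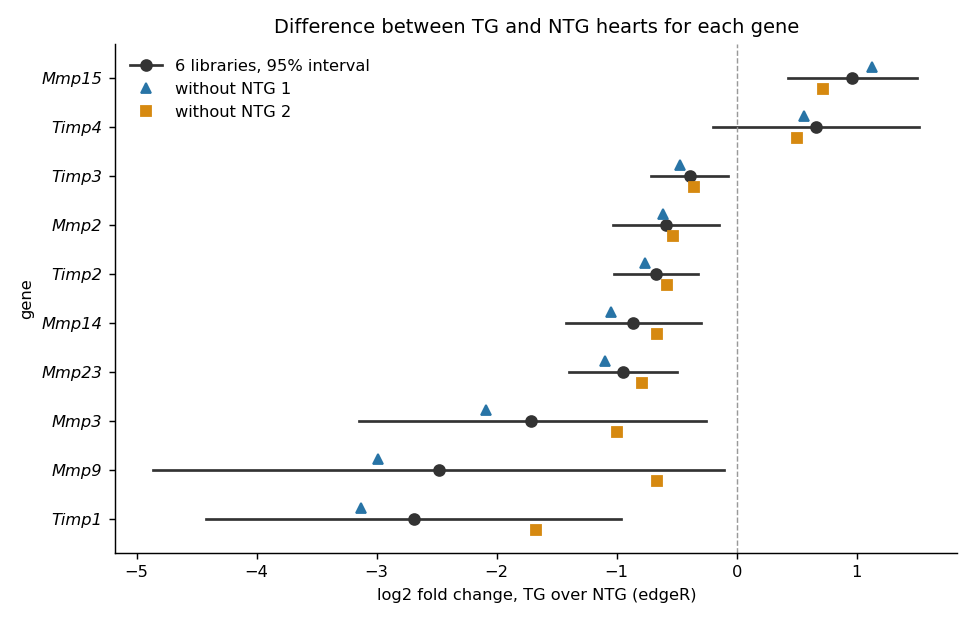
Log2 fold change of TG over NTG for each gene from edgeR with its 95% interval, and the same fit without the library labelled NTG 1 (triangles) or NTG 2 (squares). No sign turned in either fit, while Mmp9, Timp1 and Mmp3 lay much nearer to 0 without NTG 2.

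Levels were compared between genes only per kilobase of gene length. In NTG hearts Timp1, Timp2 and Mmp2 came first, at 106 ± 95.9, 95.8 ± 11.8 and 85.7 ± 6.35 CPM per kilobase (SD, n = 3). These 3 neighbours lay within the larger SD of each other, although Timp2 was above Mmp2 in all 3 libraries. The place of Timp1 rested on NTG 2, since its level was 30.0, 214 and 74.5 CPM per kilobase in NTG 1 to 3, and without NTG 2 its mean was 52.3, with rank 4 after Timp2, Mmp2 and Timp3. Without that library Mmp3 had a mean of 10.2, Mmp9 of 0.52 and Mmp15, then at rank 5, of 15.0. Timp3 followed at 56.0 ± 5.52. Mmp3, Mmp14, Mmp15, Mmp23 and Timp4 lay between 16.7 and 10.2, each within the spread of the next, and Mmp9 was last at 1.84 ± 2.31. In TG hearts Timp2 led at 60.2 ± 9.58, followed by Mmp2 at 57.0 ± 16.0 and Timp3 at 42.7 ± 5.24, where neighbours again lay within the spread. Mmp15 had rank 4 in TG at 24.8 ± 1.68 and rank 7 in NTG at 12.7 ± 3.99. Timp1 in TG was at 16.4 ± 6.89, within the spread of Timp4 at 16.1 ± 6.91.

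Summed per length, the 4 TIMP genes came to 172, 387 and 245 CPM per kilobase in NTG 1 to 3 and 137, 142 and 128 in TG 1 to 3. The 6 MMP genes came to 125, 167 and 136 in NTG and 93.1, 119 and 90.9 in TG. Both sums were lower in each TG library than in each NTG library. The ratio of TIMP to MMP level was 1.38, 2.32 and 1.81 in NTG 1 to 3 and 1.47, 1.19 and 1.41 in TG 1 to 3, so TG 1 and TG 3 lay above the library labelled NTG 1 and the groups overlapped. Timp1 made up 17.4%, 55.2% and 30.4% of the TIMP sum in NTG 1 to 3 and 9.25%, 17.2% and 9.56% in TG 1 to 3. Mmp15 made up 12.5%, 4.91% and 10.7% of the MMP sum in NTG and 28.2%, 19.4% and 27.8% in TG, with no overlap. Mmp2 remained the main part of the MMP sum, at 55.7% to 66.7% in NTG and 50.2% to 63.5% in TG. The ratio of Timp2 to Mmp2 was 1.01 to 1.19 in NTG and 0.946 to 1.20 in TG. These sums and ratios were computed from the members' own levels and carry no test.

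**Figure D4:**
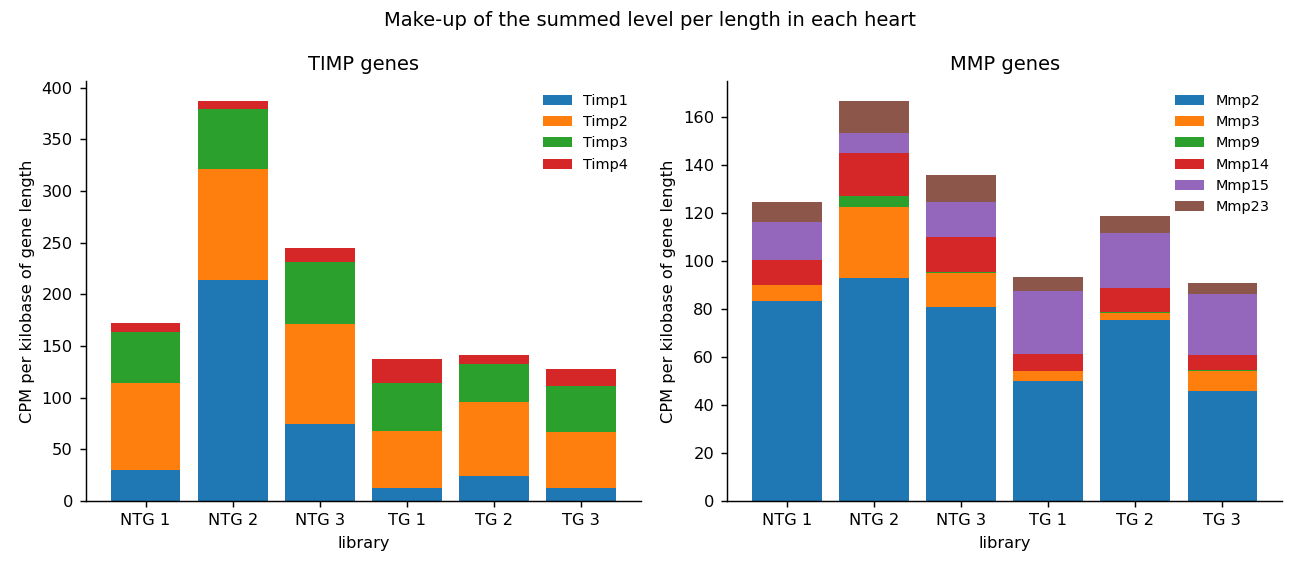
Stacked CPM per kilobase of gene length of the TIMP genes (left) and the MMP genes (right) in each library. Timp1 makes up 55.2% of the TIMP stack in NTG 2 and 17.2% or less in each TG library, and the Mmp15 band is wider in each TG library than in each NTG library.

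Of 17 further MMP genes, 6 (Mmp1a, Mmp1b, Mmp7, Mmp10, Mmp20 and Mmp21) had 0 counts in all libraries, where a count of 0 allows at most 0.159 to 0.216 CPM, depending on the library (3 counts, counting error only), and 8 could be tested. Mmp19, a broadly expressed secreted MMP, was the 1 at an unadjusted p under 0.05, where 9.76% of all genes tested were lower. Its level was 9.14, 14.3 and 9.07 CPM in NTG 1 to 3 and 6.56, 5.56 and 6.10 CPM in TG 1 to 3. TG over NTG this was a log2 fold change of -0.84 (SE 0.21, adjusted p = 0.196 by edgeR and 0.0338 by DESeq2). Mmp12, the macrophage elastase, and Mmp13, an interstitial collagenase, were sparse, with 7 to 31 and 12 to 34 counts, and had log2 fold changes of -0.84 and 0.84 at adjusted p values of 0.304 and 0.282 (edgeR).

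Of 9 ADAM proteases, which shed membrane proteins, 8 were tested. All 8 were lower in TG by level, but log2 fold changes ran from -1.16 to -0.01, with a median of -0.27. At an unadjusted p under 0.05, 3 were lower, beside 9.76% of all genes tested, and for 1 the groups did not overlap, beside 12.3%. Adam9 was 158 ± 50.5 CPM (SD, n = 3) in NTG and 84.8 ± 7.77 CPM (SD, n = 3) in TG, with no overlap. Its log2 fold change was -0.90 (SE 0.23, adjusted p = 0.196 by edgeR and 0.00923 by DESeq2). Adam12 and Adam10 followed at -1.16 and -0.36 (adjusted p = 0.229 and 0.261 by edgeR, 0.0718 and 0.253 by DESeq2), with overlapping groups. Of 19 ADAMTS proteases, secreted enzymes that process procollagen and proteoglycans, 16 were tested, with a median of -0.31. At an unadjusted p under 0.05, 6 were lower and 1 higher, beside 9.76% and 8.83% of all genes tested. Adamts2, the procollagen N-proteinase, was 189 ± 64.6 CPM (SD, n = 3) in NTG and 82.5 ± 27.0 CPM (SD, n = 3) in TG. Its log2 fold change was -1.19 (SE 0.32, adjusted p = 0.196 by edgeR and 0.00557 by DESeq2). Adamts8 and Adamts12 had log2 fold changes of -1.17 and -0.87 (adjusted p = 0.196 and 0.204 by edgeR, 0.0138 and 0.0793 by DESeq2). For all 3 the groups did not overlap, beside 12.3% of all genes tested that were lower in TG without overlap.

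Among 14 activators and surface regulators of MMPs, 12 were tested, with a median of -0.46. At an unadjusted p under 0.05, 4 were lower and 1 higher, beside 9.76% and 8.83% of all genes tested. Serpine2 (protease nexin-1), an inhibitor of plasminogen activators, had a log2 fold change of -1.55 (SE 0.35, adjusted p = 0.196 by edgeR and 0.00032 by DESeq2). Plat, the tissue plasminogen activator, had one of -0.49 (SE 0.14, adjusted p = 0.196 by edgeR and 0.0715 by DESeq2). For both genes the groups did not overlap, beside 12.3% of all genes tested that were lower in TG without overlap.

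All 10 matrix substrates tested, among them fibrillar collagens, basement membrane chains and fibronectin, were lower in TG by level. Log2 fold changes ran from -1.83 to -0.13, with a median of -0.76. At an unadjusted p under 0.05, 6 were lower, beside 9.76% of all genes tested, and for 5 the groups did not overlap, beside 12.3%. Fn1 (fibronectin), Col3a1 and Col1a2 had log2 fold changes of -1.83, -1.45 and -1.18 (adjusted p = 0.196, 0.196 and 0.2 by edgeR, 0.0404, 0.0735 and 0.00835 by DESeq2).

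Activated fibroblast markers did not all differ in the same direction. Of 5 markers, 4 were lower by level and 2, Postn and Cthrc1, were lower at an unadjusted p under 0.05, while Acta2 was higher at that threshold. Over all genes tested, 9.76% were lower and 8.83% higher at that threshold. Groups did not overlap for 12.3% of genes lower and 11.2% higher. The 5 markers summed to 1198 to 3886 CPM in NTG and 367 to 964 CPM in TG, with no marker at 0. Postn alone was 942 to 3560 CPM in NTG and 178 to 671 CPM in TG, and the other 4 markers summed to 253 to 326 CPM in NTG and 189 to 293 CPM in TG, which overlapped. The 6 general fibroblast markers summed to 3500 to 4176 CPM in NTG and 3098 to 4172 CPM in TG, which overlapped, with 2 markers lower at an unadjusted p under 0.05. Gsn alone was 1314 to 2231 CPM in NTG and 1931 to 2602 CPM in TG, and the other 5 markers summed to 1755 to 2186 CPM in NTG and 1167 to 1570 CPM in TG, with no overlap. Dcn made up most of that sum, at 1291, 1647 and 1508 CPM in NTG 1 to 3 and 811, 1138 and 886 CPM in TG 1 to 3. It was the 1 marker of the 6 whose groups did not overlap. Macrophage markers summed to 798 to 1462 CPM in NTG and 590 to 822 CPM in TG, with 3 of 6 lower at that threshold. Red blood cell markers were lower in TG for all 3 genes, at 1151 to 1931 CPM in NTG and 651 to 760 CPM in TG. Endothelial (1304 to 1483 and 1333 to 1489 CPM), mural cell (1091 to 1426 and 1151 to 1416 CPM) and mesothelial markers (23.7 to 41.7 and 23.4 to 35.1 CPM) overlapped between NTG and TG. Of these lists, 1 of 5 endothelial markers (Kdr, log2 fold change 0.37) and 1 of 5 mural cell markers (Myh11, log2 fold change 0.70) were higher in TG at an unadjusted p under 0.05, with no overlap, and 0 were lower at that threshold. Emcn, another endothelial marker, was lower in TG with no overlap, though not at that threshold (log2 fold change -0.19, unadjusted p = 0.0734, edgeR). The part of these cell types in the MMP and TIMP differences was not tested.

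The genes whose log2 CPM followed a member most closely over the 6 libraries, by Pearson's r, are given as a description, since these libraries share the group difference and the position of the libraries labelled NTG 1 and NTG 2. For Mmp2 they were Zfyve28, Pdgfrl and Casc4 (r from 0.996 to 0.999). For Mmp14 they were Tmem104, Xrn2 and Twf1 (0.998 to 0.999). For Timp1 they were Adap2, Rtn4 and Stk3 (0.999 to 1.0), and for Timp4 Ubxn6 and Neurl4 (0.988 and 0.983). Within the family, Mmp14 followed Mmp23 (r = 0.99), Timp1 (0.98) and Timp2 (0.98), and ran against Mmp15 (-0.93).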

How the data were processed

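The deposited values are the authors' raw featureCounts counts, 1 per gene and library, without normalization or pooling. The study also ran StringTie, and its reads were filtered for quality before alignment. The submitters' processing notes name HISAT2, DESeq2 and the build GRCh38, which is a human build, while of 54495 gene identifiers found in the annotation 53585 have coordinates identical to GENCODE M21 (GRCm38), which was used for positions. Strand setting and the handling of multi-mapping reads are not given in the sources used here. Dates stood in place of 27 gene names, which were restored, and 0 sample columns were unmatched.

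The fit used edgeR 4.0.16 under R 4.3.3 (TMM, filterByExpr, robust quasi-likelihood test, Benjamini-Hochberg adjustment over 14774 genes). Calls required an adjusted p below 0.05 together with a log2 fold change beyond 0.5 in either direction, and an adjusted p alone was an alternative. Log2 CPM has a prior count of 2. The common biological coefficient of variation was 18.7%. Alternatives were DESeq2 1.42.0, limma 3.58.1 (voom), the likelihood-ratio test, other scalings and filters, a replicate block and each library left out. The edgeR, DESeq2, voom and likelihood-ratio fits were tested on simulated data first. All library pairs differed by more than sampling noise (chi-square per gene 15.5 to 133). Floors for a count of 0 cover counting error only.

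The members and lists were chosen with earlier results of these data known. The rule for named genes took the 10 members, the 3 genes of each protease or substrate list with the smallest unadjusted p, and the 3 genes nearest in pattern to Mmp2, Mmp14, Timp1 and Timp4. Of these genes, 2 are not reported here. Markers singled out by name (Ly6g, Mmp8, Tnni3, Postn, Cthrc1, Acta2, Gsn, Dcn, Kdr, Emcn and Myh11) were chosen after their values were seen.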

Additional observations from a re-analysis of the deposited data

How the results depend on the processing

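The number of calls moved with the test, with leaving out the low-count filter and with the libraries used. edgeR's quasi-likelihood test called 0 genes with RLE, upper quartile and library size scaling, with at least 10 counts in every library and by an adjusted p alone, and limma voom called 0, while 2747 genes had an unadjusted p under 0.05. With no low-count filter edgeR called 116 genes higher and 116 lower, 2 of them members. DESeq2 called 228 and 355, with 5 members, and the likelihood-ratio test 206 and 339, with 5 members. Leaving out each library in turn, edgeR called 0 to 404 genes higher, 0 to 432 lower and 0 to 4 members, the upper ends without the library labelled NTG 1. DESeq2 called 896 higher and 877 lower (7 members) without that library, 47 and 76 (1 member) without NTG 2, 40 and 129 (1 member) without NTG 3, 103 and 76 (0 members) without TG 1, 292 and 486 (7 members) without TG 2, and 29 and 67 (0 members) without TG 3. The cause was not tested. The members at an unadjusted p under 0.05 numbered 6 to 10 in all settings.

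The replicate numbers are not stated to mark a shared litter or day, and same-numbered libraries deviated together with correlations of 0.081, 0.173 and -0.252, so they were not taken as pairs. With a replicate block edgeR called 84 genes higher and 147 lower, 3 of them members.

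No member changed sign in any setting. Of the members' refitted fold changes, 175 stayed on the same side of the calling threshold and 35 passed it. Library size scaling moved the median of all genes to -0.093 on the log2 scale. Depth limits Mmp9 most, with 14 to 300 counts.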
